A study of Mus musculus with 12 samples.

Results

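The genes described here code for structural proteins of the extracellular matrix and for proteins that mark fibroblasts and the cells around blood vessels. They are Col1a1, Col3a1, Col4a1, Fn1, Fap, Pdgfrb, Thy1, Thbs1 and Twist1. Each was found by its symbol, and 9 of 9 were present among the 750 genes of the normalized table of a mouse immune profiling panel. All 9 passed the filter on low values (at least 20 normalized counts in at least 3 tumors), as did 689 of the 750 genes. The question was which of them were lower in tumors of mice that received olaparib, an inhibitor of poly(ADP-ribose) polymerase (PARP).

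The 12 tumors modelled triple-negative breast cancer. They carried K14-Cre with floxed Trp53 (Trp53 f/f) and Brca1 (Brca1 f/f) alleles and were grown as transplants in the fat pad of the mammary gland, in syngeneic FVB/129P2 female mice. How many donor tumors they came from was not stated in the labels. Cre in this model is driven by the keratin 14 promoter, which is active in epithelial cells, so the fibroblasts and vessels of a tumor are not the cells in which Brca1 and Trp53 were deleted by design. There were 4 groups of 3 tumors, all collected at day 3. Vehicle mice received DMSO in saline into the peritoneum and a saline injection of 40 μl into the tumor. The olaparib group received 50 mg/kg olaparib daily by the peritoneal route with saline into the tumor. The ADU-S100 group received 50 μg of ADU-S100, an activator of the innate immune sensor STING, into the tumor, with DMSO by the peritoneal route (in saline per the labels, in PBS per the study's methods). The combination group received olaparib and ADU-S100. Tumors are named here by their group and by the number in their label. The epithelial adhesion gene Epcam lay between 4580 and 15844 normalized counts in the tumors, so each chunk held epithelial RNA.

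Fibrillar collagens form the load-bearing fibers of connective tissue, and fibronectin is laid down beside them as a scaffold to which cells attach through integrins. In breast tumors most of this matrix is made by fibroblasts, whereas type IV collagen belongs to the basement membranes under epithelium and around vessels. Fibroblasts and pericytes are recognised by surface proteins such as FAP, PDGFRB and THY1, and TWIST1 is a transcription factor of mesenchymal cells. Whole tumor chunks were measured, so fewer cells of a type and less RNA per cell cannot be told apart.

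Promoter sequences were matched for 3 of the 9 genes in the RefSeq table (build GRCm38.p6), each running from 250 bases before the annotated start to 50 bases after it. They belong to an interstitial collagen, a basement membrane collagen and a transcription factor, and are shown for reference beside the values of these genes below. Capitals mark matches on either strand to 4 motifs. The TATA box was searched by the letters TATAAA. The CCAAT box was searched as it is named, without further letters around it. For the GC box the search used GGGCGG and its reverse complement. The E-box was searched as CANNTG, where N is any base, and no matches of different motifs overlapped in these sequences. The sequences lie at chr1:45311288-45311587 on the plus strand (Col3a1), chr8:11312777-11313076 on the minus strand (Col4a1) and chr12:33957421-33957720 on the plus strand (Twist1), and are written in the direction of the gene.
Col3a1: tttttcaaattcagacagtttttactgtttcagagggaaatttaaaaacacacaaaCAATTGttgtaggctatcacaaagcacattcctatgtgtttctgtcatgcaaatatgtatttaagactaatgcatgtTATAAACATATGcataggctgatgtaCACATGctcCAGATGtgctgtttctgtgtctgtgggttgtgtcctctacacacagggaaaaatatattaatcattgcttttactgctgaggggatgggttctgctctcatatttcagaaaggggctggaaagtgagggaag
Col4a1: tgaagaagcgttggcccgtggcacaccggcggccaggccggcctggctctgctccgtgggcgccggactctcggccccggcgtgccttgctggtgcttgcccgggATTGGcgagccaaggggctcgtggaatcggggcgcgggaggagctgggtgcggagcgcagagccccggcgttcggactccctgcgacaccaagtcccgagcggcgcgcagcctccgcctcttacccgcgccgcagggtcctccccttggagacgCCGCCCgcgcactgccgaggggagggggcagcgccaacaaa
Twist1: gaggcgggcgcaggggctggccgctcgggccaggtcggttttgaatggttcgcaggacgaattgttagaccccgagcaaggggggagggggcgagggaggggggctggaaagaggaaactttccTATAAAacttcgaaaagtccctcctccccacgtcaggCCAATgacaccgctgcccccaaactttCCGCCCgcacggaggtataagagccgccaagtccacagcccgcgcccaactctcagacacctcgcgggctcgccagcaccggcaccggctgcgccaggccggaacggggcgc

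The Col3a1 sequence held a TATA box match at -117 and 4 E-box matches, with a GC content of 37.7%. The Col4a1 sequence held a CCAAT box match at -145 and a GC box match at 10, with a GC content of 74.0%. The Twist1 sequence held a match to the TATA box at -126, to the CCAAT box at -89 and to the GC box at -62, with a GC content of 66.0%. Positions are counted from the annotated start. Across the 32851 promoters of the table the median GC content was 52.7%, and the TATA box was found in 13.6% of them, the CCAAT box in 37.4%, the GC box in 35.7% and the E-box in 72.3%. These matches are letters in a window and were not tested as binding sites. No motif was shared by all 3 sequences.

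Values are normalized counts, that is, digital counts of hybridised probes that the authors scaled for each tumor to positive controls and housekeeping genes. The counts before scaling could be recovered as whole multiples of a factor for each tumor, which ranged from 0.589 to 10.5. The recovered totals ran from 106206 counts in olaparib tumor 1517 to 1519471 counts in vehicle tumor 1269. A low total makes a low value less certain: Twist1 in olaparib tumor 1510 rested on 3 counts, and in olaparib tumor 1517 on 17 counts. Tumor numbers starting with 12 (vehicle tumor 1269 and combination tumors 1251 and 1270) and with 15 (the other 9) were treated as a possible batch, although no label explains the numbering.

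The estimates of all 9 genes were lower with olaparib than without, and 4 of them, Col1a1, Fn1, Col3a1 and Thy1, had the larger differences relative to their error. The 6 tumors of the olaparib and combination groups were set against the 6 tumors of the vehicle and ADU-S100 groups. The estimate was negative for 9 of 9 genes, with a median log2 fold change of -0.90, where the median over the 689 genes tested was 0.10 and 271 genes (39.3%) were negative. An unadjusted limma p under 0.05 in the lower direction was reached by 4 members, and by 10 of the 689 genes, or 1.45%. These counts depended on the processing and on single tumors: they were 6 of 20 lower genes with each tumor scaled to the same median, 5 of 28 after quantile normalization, 6 of 29 in edgeR with TMM, 8 of 47 without olaparib tumor 1517, 4 of 25 without vehicle tumor 1269 and 3 of 5 without vehicle tumor 1529. The other genes among those 10, named after their values were seen, were Birc5, Ccl2, Ccl7, Ncam1, Ptgs2 and Raet1. No gene passed an adjusted p of 0.05 in limma after Benjamini-Hochberg adjustment over the 689 genes, a background of 0%. The lowest limma adjusted p of a member was 0.529 in this comparison and 0.442 over the 6 comparisons (Col3a1, interaction below). No member therefore passed as reported. Under the alternatives, Col3a1 passed in olaparib against vehicle with olaparib tumor 1521 left out. For the olaparib-treated against the olaparib-free tumors the count of genes passing was also 0 when the recovered counts were tested in edgeR by quasi-likelihood, scaled by the deposited factors or by TMM. In limma 52 genes had an unadjusted p under 0.05 in either direction. For none of the 9 genes did every olaparib-treated tumor lie below every olaparib-free tumor, which also held for 0% of the 689 genes.

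**Figure D1:**
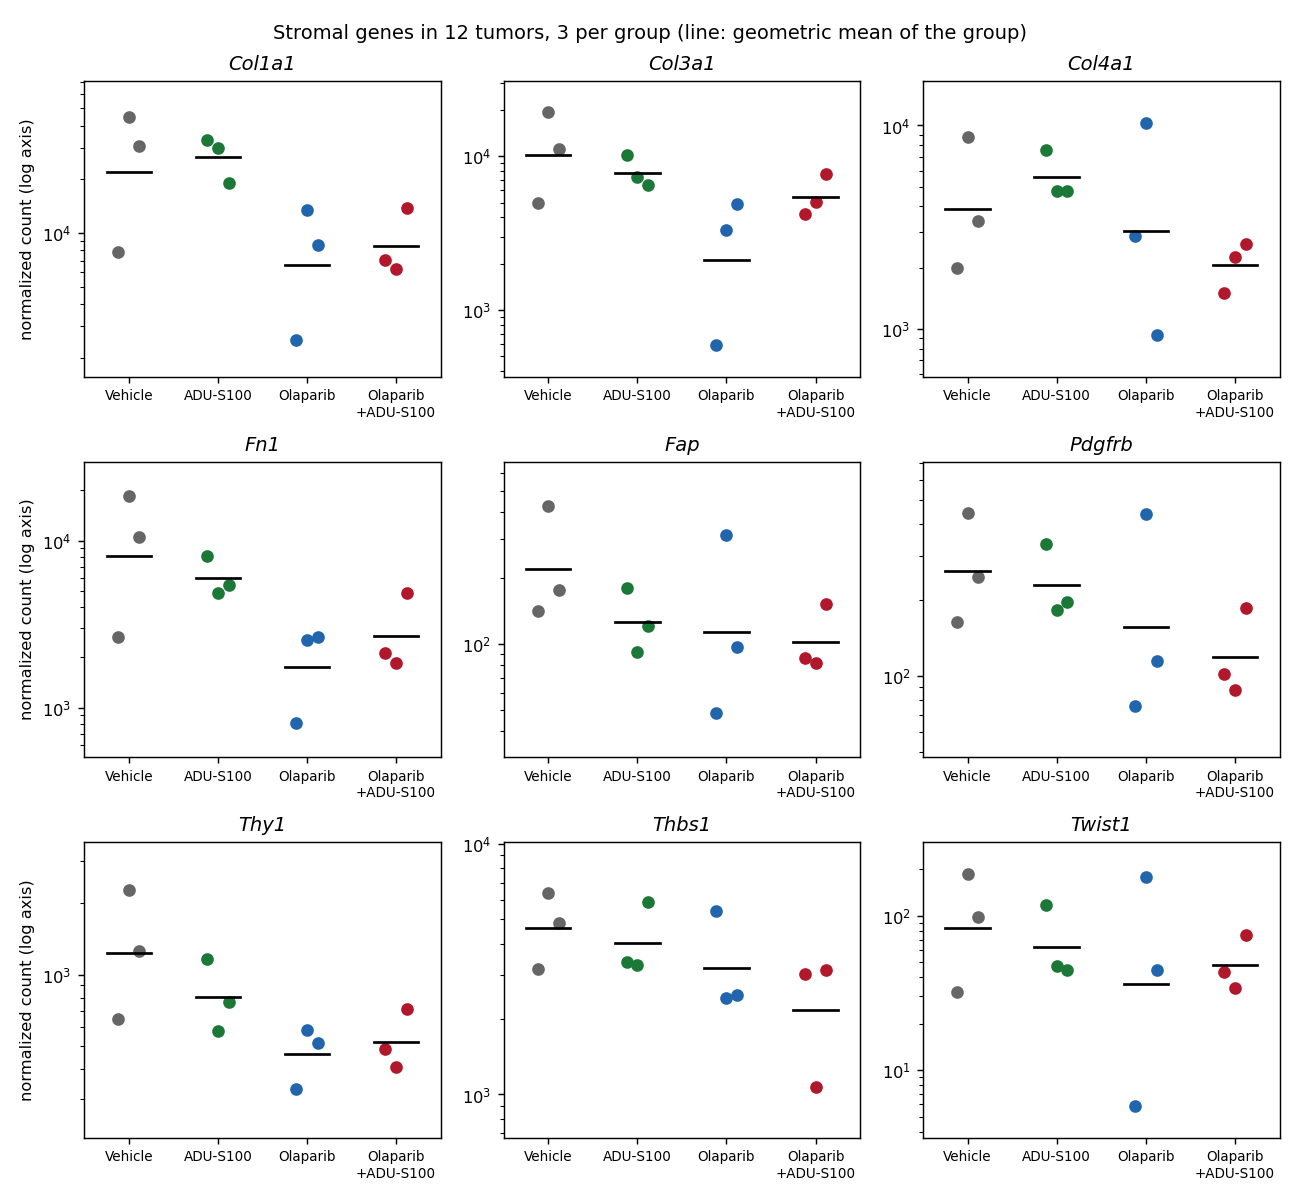
Normalized count (log axis) of each of the 9 genes in the 12 tumors. Each point is a tumor, each column a treatment group of 3, and each line the geometric mean of the group. Vehicle tumor 1529 is the highest point for 8 genes and olaparib tumor 1510 the lowest for 7, and for Col1a1 the combination tumors lie below the 3 ADU-S100 tumors.

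Col1a1 codes for the main chain of type I collagen, the most abundant fibrillar collagen. In vehicle tumors 1269, 1529 and 1536 it was at 7802, 44394 and 30532 normalized counts, and in ADU-S100 tumors 1506, 1512 and 1513 at 33138, 29769 and 18999. In olaparib tumors 1510, 1517 and 1521 it was at 2498, 13393 and 8575, and in combination tumors 1251, 1270 and 1539 at 7011, 6242 and 13797. All olaparib-treated tumors were below the ADU-S100 tumors, and the only overlap with olaparib-free tumors came from vehicle tumor 1269. The group means were 27576 ± 18474 (SD, n = 3) for vehicle, 27302 ± 7385 for ADU-S100, 8155 ± 5460 for olaparib and 9016 ± 4158 for the combination. With olaparib Col1a1 was 3.23-fold lower (log2 fold change -1.69, SE 0.52, 95% interval -2.84 to -0.55, limma unadjusted p = 0.00762, adjusted p = 0.529). Leaving out 1 tumor at a time moved the log2 fold change between -2.07 (without vehicle tumor 1269) and -1.34 (without olaparib tumor 1510).

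Fn1 codes for fibronectin. It was at 2658, 18645 and 10601 normalized counts in vehicle tumors 1269, 1529 and 1536, and at 8064, 4835 and 5403 in ADU-S100 tumors 1506, 1512 and 1513. In olaparib tumors 1510, 1517 and 1521 it was at 809, 2547 and 2661, and in combination tumors 1251, 1270 and 1539 at 2130, 1857 and 4882. Olaparib tumor 1521 and vehicle tumor 1269 were almost level, and the other olaparib tumors were below all vehicle tumors. Combination tumor 1539 overlapped with ADU-S100 tumor 1512. With olaparib Fn1 was 3.19-fold lower (log2 fold change -1.67, SE 0.52, 95% interval -2.80 to -0.54, limma unadjusted p = 0.0076, adjusted p = 0.529).

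Col3a1 codes for type III collagen, the finer fibrillar collagen found with type I. Its values were 4991, 19274 and 11093 normalized counts in vehicle tumors 1269, 1529 and 1536, and 10120, 7321 and 6473 in ADU-S100 tumors 1506, 1512 and 1513. They were 588, 3322 and 4923 in olaparib tumors 1510, 1517 and 1521, and 4213, 5037 and 7695 in combination tumors 1251, 1270 and 1539. Every olaparib tumor was below every vehicle tumor, while the combination tumors overlapped with both olaparib-free groups. The log2 fold change with olaparib was -1.39 (SE 0.52, 95% interval -2.54 to -0.24, limma unadjusted p = 0.0222, adjusted p = 0.529). It depended on olaparib tumor 1510, without which it was -0.93, and it was -1.16 without vehicle tumor 1529 (limma unadjusted p = 0.0567).

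Thy1 codes for a glycoprotein on the surface of fibroblasts, which mouse T cells also carry. It was at 650, 2257 and 1257 normalized counts in vehicle tumors 1269, 1529 and 1536, and at 1165, 578 and 766 in ADU-S100 tumors 1506, 1512 and 1513. With olaparib, tumors 1510, 1517 and 1521 were at 329, 587 and 513, and in combination tumors 1251, 1270 and 1539 at 488, 408 and 717. The olaparib tumors were all below the vehicle tumors, and the combination tumors overlapped with both olaparib-free groups. In the olaparib-treated tumors Thy1 was 2.01-fold lower (log2 fold change -1.01, SE 0.36, 95% interval -1.80 to -0.22, limma unadjusted p = 0.0162, adjusted p = 0.529). Summed normalized counts of T cell markers were at 212 to 397 in vehicle tumors, 325 to 823 with ADU-S100, 262 to 964 with olaparib and 505 to 777 with the combination. These ranges overlapped between the groups, except for the combination and vehicle, and the part of T cells in the Thy1 values was not tested.

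Fap, Pdgfrb and Twist1 separated the groups less. Fap codes for fibroblast activation protein, a surface protease of activated fibroblasts. It was at 141, 425 and 176 normalized counts in vehicle tumors 1269, 1529 and 1536. The values were 179, 92.3 and 121 in ADU-S100 tumors 1506, 1512 and 1513, 48.7, 314 and 96.6 in olaparib tumors 1510, 1517 and 1521, and 86.7, 81.6 and 152 in combination tumors 1251, 1270 and 1539. Olaparib tumor 1517 had the second highest of the 12 values, and each pair of groups overlapped. With olaparib the Fap estimate was a log2 fold change of -0.62 (SE 0.47, limma unadjusted p = 0.216, 95% interval -1.65 to 0.41). It was -0.98 without olaparib tumor 1517 (limma unadjusted p = 0.0255) and -0.31 without olaparib tumor 1510.

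Pdgfrb codes for the receptor of platelet-derived growth factor on pericytes and fibroblasts. It was at 164, 443 and 247 normalized counts in vehicle tumors 1269, 1529 and 1536, and at 333, 183 and 195 in ADU-S100 tumors 1506, 1512 and 1513. In olaparib tumors 1510, 1517 and 1521 it was at 76.0, 440 and 115, and in combination tumors 1251, 1270 and 1539 at 101, 88.2 and 186. Olaparib tumor 1517 was level with the highest vehicle tumor, and the other olaparib tumors were below all olaparib-free tumors. For Pdgfrb the log2 fold change with olaparib was -0.84 (SE 0.46, limma unadjusted p = 0.0937, 95% interval -1.84 to 0.17). It was -1.21 without olaparib tumor 1517 (limma unadjusted p = 0.0059), -0.91 with each tumor scaled to the same median (limma unadjusted p = 0.0155) and -0.58 without olaparib tumor 1510.

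Twist1 codes for a transcription factor of mesenchymal cells, and some of its values rest on few counts. It was at 32.1, 187 and 97.7 normalized counts in vehicle tumors 1269, 1529 and 1536, at 117, 47.2 and 44.2 in ADU-S100 tumors 1506, 1512 and 1513, and at 42.9, 33.8 and 74.6 in combination tumors 1251, 1270 and 1539. In olaparib tumors 1510, 1517 and 1521 it was at 5.84, 178 and 44.2. The olaparib group therefore held the lowest of the 12 values and the second highest. The exact 95% Poisson interval of the 5.84 was 1.21 to 17.1 normalized counts, and that of the 178 was 104 to 285, for counting error only. The log2 fold change with olaparib was -0.77 (SE 0.72, limma unadjusted p = 0.310, 95% interval -2.36 to 0.82), and it was -0.15 without olaparib tumor 1510 and -1.33 without olaparib tumor 1517 (limma unadjusted p = 0.0487).

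Col4a1 codes for a chain of type IV collagen, the network collagen of basement membranes. It was at 1988, 8794 and 3396 normalized counts in vehicle tumors 1269, 1529 and 1536, and at 7605, 4741 and 4774 in ADU-S100 tumors 1506, 1512 and 1513. In olaparib tumors 1510, 1517 and 1521 it was at 2860, 10333 and 931, and in combination tumors 1251, 1270 and 1539 at 1497, 2247 and 2608. The olaparib group held both the highest and the lowest of the 12 values, whereas all combination tumors were below all ADU-S100 tumors. The log2 fold change with olaparib was -0.90 (SE 0.56, 95% interval -2.12 to 0.32, limma unadjusted p = 0.134, adjusted p = 0.752), and it was -1.34 without olaparib tumor 1517 and -0.48 without olaparib tumor 1521. Olaparib tumor 1517 also had the highest summed endothelial markers, at 37317 normalized counts against 2198 to 16033 in the other 11 tumors. Of the 6 tumors with a scaling factor over 1, 5 held the 5 highest Col4a1 values. With the log2 factor as a covariate the Col4a1 estimate was -0.93 (limma unadjusted p = 0.00338, adjusted p = 0.170). The part of vessels and of the scaling in the Col4a1 values was not tested further.

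Thbs1 codes for thrombospondin-1, a matricellular glycoprotein that restrains vessel growth and is also stored in platelets. It was at 3170, 6363 and 4848 normalized counts in vehicle tumors 1269, 1529 and 1536, and at 3384, 3289 and 5890 in ADU-S100 tumors 1506, 1512 and 1513. It was at 5416, 2431 and 2488 in olaparib tumors 1510, 1517 and 1521, and in combination tumors 1251, 1270 and 1539 at 3022, 1075 and 3131. Olaparib tumor 1510, the lowest tumor for 7 other members, was the third highest for Thbs1. The combination tumors were below all vehicle and all ADU-S100 tumors, although by a small margin. Its log2 fold change with olaparib was -0.71 (SE 0.38, limma unadjusted p = 0.0864, 95% interval -1.54 to 0.12). It was -0.46 without combination tumor 1270, -0.33 without olaparib tumors 1517 and 1521, and -0.90 without olaparib tumor 1510 (limma unadjusted p = 0.0372). Summed platelet markers, of which only Itga2b and Ppbp were measured, were at 77.3 to 116 normalized counts with vehicle, 138 to 293 with ADU-S100, 87.2 to 262 with olaparib and 84.1 to 178 with the combination.

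**Figure D2:**
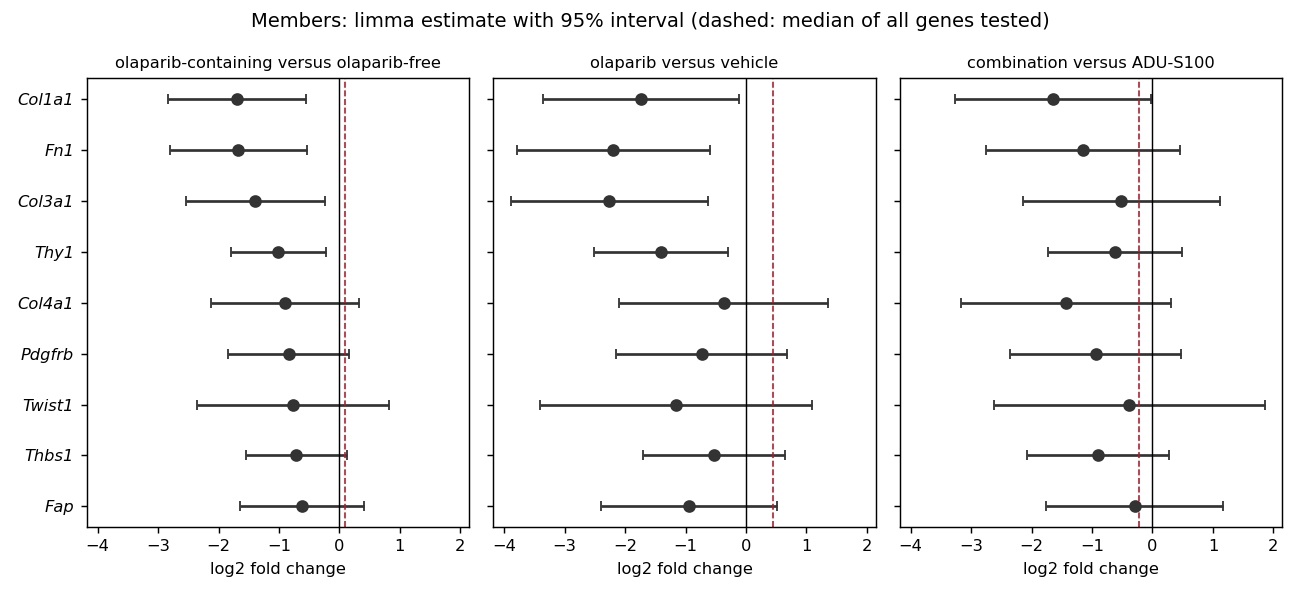
The limma log2 fold change of each of the 9 genes (x axis) in 3 comparisons, with its 95% interval. The dashed line is the median of the 689 genes tested and the solid line is no difference. Each estimate is below 0, and the interval excludes 0 for Col1a1, Fn1, Col3a1 and Thy1 in the first 2 panels and for Col1a1 in the third, before adjustment over the panel.

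Without ADU-S100, the interstitial matrix genes and Thy1 were the members furthest below vehicle. In the olaparib tumors against the vehicle tumors the log2 fold change was -2.26 for Col3a1 (SE 0.74), -2.19 for Fn1 (SE 0.73), -1.73 for Col1a1 (SE 0.74) and -1.40 for Thy1 (SE 0.51), with limma unadjusted p of 0.0108, 0.0116, 0.0381 and 0.0177. On the linear scale these were 4.80-fold, 4.58-fold, 3.33-fold and 2.65-fold lower. The adjusted p was 0.577 for Col3a1, Fn1 and Thy1 and 0.582 for Col1a1 in limma. The estimates for Twist1, Fap, Pdgfrb, Thbs1 and Col4a1 were -1.16, -0.94, -0.73, -0.53 and -0.37, none with an unadjusted p under 0.05 in limma. The median over the members was -1.16, against 0.45 over the 689 genes, of which 25.4% were negative. The 4 members stood among 10 genes lower at an unadjusted p under 0.05 in limma (1.45%). Complete separation, each olaparib tumor below each vehicle tumor, was seen for 2 members, Col3a1 and Thy1, and for 7 of the 689 genes (1.02%). The panel reference depended on the scaling: the median over all genes was 0.10 with each tumor scaled to the same median, -0.0053 after quantile normalization and -0.058 with the log2 factor as a covariate, and all 9 members were negative under each. The genes lower and higher at an unadjusted limma p under 0.05 were 10 and 40 as deposited, 21 and 25 after quantile normalization and 45 and 12 with the factor as a covariate. The members among the lower genes were 4 of 10 as deposited, 6 of 13 with median scaling, 6 of 21 after quantile normalization, 6 of 16 in edgeR with TMM, and 7 of 45 with the factor. Fap was at -1.29 and Pdgfrb at -1.08 with median scaling (limma unadjusted p of 0.0197 and 0.0359), and Col4a1 at -1.58 with the factor (limma unadjusted p = 0.00234). In the other direction, Fap was at -0.33 and Pdgfrb at -0.22 without olaparib tumor 1510 (limma unadjusted p of 0.622 and 0.751). Col4a1 was at 0.48 without olaparib tumor 1521 (limma unadjusted p = 0.504).

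These differences rested on few tumors. Without olaparib tumor 1510 the log2 fold change was -1.34 for Col3a1, -1.63 for Fn1, -1.03 for Col1a1 and -1.16 for Thy1, with limma unadjusted p of 0.0421, 0.0572, 0.177 and 0.0647. Without vehicle tumor 1529 it was -1.81, -1.59, -1.23 and -0.96 for the same genes. In either case 1 of the 4 members, Col3a1, kept an unadjusted limma p under 0.05. The lower genes of the panel at that threshold were 5 without olaparib tumor 1510 and 3 without vehicle tumor 1529. By the methods' t-test none of the 9 had an unadjusted p under 0.05, and 1 gene of the panel was lower at it. In the other direction, Col3a1 had a limma adjusted p of 0.0460 without olaparib tumor 1521 (log2 fold change -2.87), where 55 genes of the panel passed. Without olaparib tumor 1517, 7 members were among 21 genes lower at an unadjusted limma p under 0.05.

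With ADU-S100, the largest differences were in the type I and type IV collagen genes. In the combination tumors against the ADU-S100 tumors the log2 fold change was -1.65 for Col1a1 (SE 0.74, limma unadjusted p = 0.0465, adjusted p = 0.525), or 3.14-fold lower. Without ADU-S100 tumor 1506 or 1512, or combination tumor 1251 or 1270, the Col1a1 estimate was -1.49, -1.57, -1.52 or -1.43, with limma unadjusted p of 0.111, 0.100, 0.110 or 0.125. The estimate was -1.43 for Col4a1 (SE 0.79, limma unadjusted p = 0.0961, and 0.0314 at -1.23 with median scaling) and -1.15 for Fn1 (SE 0.73, limma unadjusted p = 0.143). For Pdgfrb, Thbs1, Thy1, Col3a1, Twist1 and Fap the estimates were -0.94, -0.90, -0.62, -0.52, -0.38 and -0.30. All 9 were negative, with a median of -0.90 against -0.22 over the 689 genes, of which 59.7% were negative. The unadjusted p was under 0.05 in the lower direction for 1 member in limma, Col1a1, and for 32 genes of the panel (4.64%). Col1a1, Col4a1 and Thbs1 were completely separated, and so were 144 of the 689 genes (20.9%), against which the 3 of 9 members are to be read. Without combination tumor 1270 the Thbs1 estimate was -0.39. Combination tumors 1251 and 1270 carry numbers starting with 12 and the ADU-S100 tumors all start with 15. With the number series as a block the estimate was -0.55 for Col1a1 (limma unadjusted p = 0.475), and it turned positive for Col3a1 (0.25), Fn1 (0.084), Thy1 (0.069), Fap (0.30) and Twist1 (0.62). The factors of these groups did not overlap either, at 1.43 to 2.85 for ADU-S100 and 0.810 to 0.824 for the combination, on totals of 372390 to 683982 and 1339258 to 1491854 counts, so depth and group cannot be told apart here. With the log2 factor as a covariate the estimate was -0.29 for Col4a1 (limma unadjusted p = 0.480) and -1.22 for Col1a1 (limma unadjusted p = 0.141).

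In the combination tumors against vehicle, Thy1 was the only gene of the 689 that was lower at an unadjusted p under 0.05 in limma (0.145%), with a log2 fold change of -1.23 (SE 0.51, unadjusted p = 0.0331, adjusted p = 0.504). Fn1 was at -1.59 (limma unadjusted p = 0.0514) and Col1a1 at -1.38 (limma unadjusted p = 0.0886). The count of lower genes at this threshold depended on the scaling: it was 13, with 6 members among them, when the tumors were scaled to the same median, 17 with 4 members after quantile normalization, and 28 with 7 members in edgeR with TMM. The estimates for Pdgfrb, Fap, Thbs1, Col4a1, Col3a1 and Twist1 were -1.14, -1.09, -1.09, -0.92, -0.90 and -0.80, and the median of the 9 was -1.09 against 0.21 over all genes. Thbs1 was the member with complete separation, beside 11 of the 689 genes (1.6%), and its estimate was -0.58 without combination tumor 1270. With the number series as a block no member was under 0.05: Thy1 was at -0.89 (limma unadjusted p = 0.0871), Fn1 at -0.97 and Col1a1 at -0.83. Without vehicle tumor 1529 Thy1 was at -0.79 (limma unadjusted p = 0.158), Fn1 at -0.98, Col1a1 at -0.87, Pdgfrb at -0.76, Fap at -0.61, Col3a1 at -0.44, Col4a1 at -0.33 and Twist1 at -0.23. Without vehicle tumor 1269 Fn1 was at -2.39 and Col1a1 at -2.12 (limma unadjusted p of 0.00389 and 0.0114). Thy1 was also over 0.05 without vehicle tumor 1536 or combination tumor 1251 or 1270 (limma unadjusted p of 0.0691, 0.0795 and 0.105). The comparison uses the same vehicle tumors as that of olaparib alone.

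ADU-S100 alone gave smaller differences. Against vehicle, 7 of the 9 members were negative with a median log2 fold change of -0.38, where the median over all genes was 0.44 and 21.8% of them were negative. The count rested on vehicle tumor 1529, without which 2 members were negative, Fap at -0.32 and Thy1 at -0.17. It was 8 with each tumor scaled to the same median, where Fap was at -1.20 (limma unadjusted p = 0.0274, adjusted p = 0.805) and the median over all genes at 0.036, and 9 in edgeR with TMM, where that median was -0.15. The extremes were Fap at -0.79 (limma unadjusted p = 0.257) and Thy1 at -0.61 (limma unadjusted p = 0.251) at the low end, and Col1a1 at 0.28 and Col4a1 at 0.51 at the high end. As deposited, none of the members was lower at an unadjusted p under 0.05 in limma, as was 1 gene of the panel (0.145%), and none was completely separated below vehicle, as were 1.02% of the genes. In edgeR with TMM 2 members were among 10 lower genes, Fap at -1.36 and Thy1 at -1.19 (edgeR unadjusted p of 0.0181 and 0.0231, adjusted p = 0.690 for each). The vehicle tumors spread widely: the SD of the 3 vehicle values was 18474 for Col1a1 against 7385 in the ADU-S100 tumors, and 7993 for Fn1 against 1724.

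Whether the difference with olaparib depended on ADU-S100 was tested as an interaction, the combination minus ADU-S100 less olaparib minus vehicle. For Col3a1 the estimate was 1.75 (SE 1.05, 95% interval -0.56 to 4.05, limma unadjusted p = 0.124, adjusted p = 0.442), and for Fn1 1.05 (SE 1.03, limma unadjusted p = 0.332). Col1a1 was at 0.083 (SE 1.05, 95% interval -2.21 to 2.38) and Col4a1 at -1.06 (SE 1.11). No member had an unadjusted p under 0.05 in limma, against 75 of the 689 genes (10.9%) in either direction. With the number series as a block the estimate was 2.89 for Fn1 (limma unadjusted p = 0.0124, adjusted p = 0.896) and 2.89 for Col3a1 (limma unadjusted p = 0.0421, adjusted p = 0.896), and 21 genes had an unadjusted limma p under 0.05 in either direction. Col3a1 was also under 0.05 with each tumor scaled to the same median (2.30, limma unadjusted p = 0.0400, adjusted p = 0.375) and without olaparib tumor 1521 (2.35, limma unadjusted p = 0.0401, adjusted p = 0.132). It was 0.82 without olaparib tumor 1510 (limma unadjusted p = 0.312). Fn1 was at 0.44 without vehicle tumor 1529, 0.48 without olaparib tumor 1510 and 0.61 without combination tumor 1539. The intervals are wide and do not show that the difference with olaparib was alike in the presence and absence of ADU-S100.

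**Figure D3:**
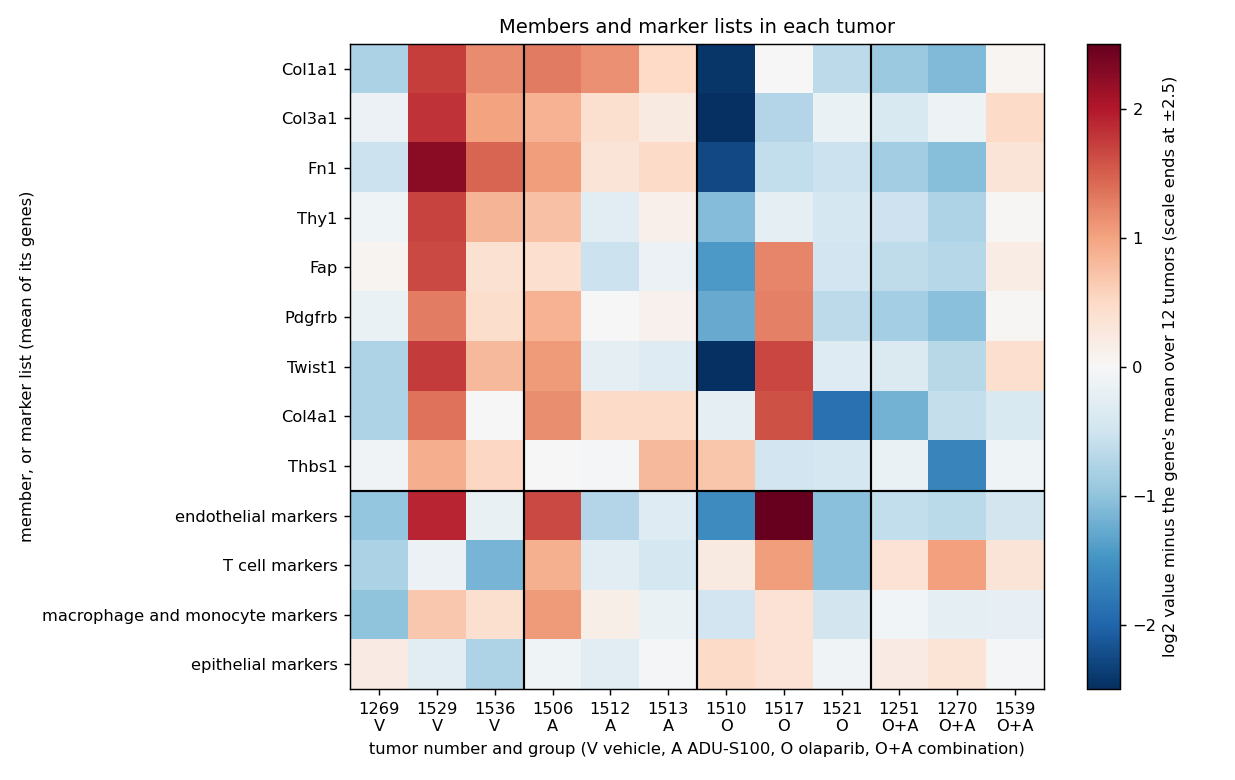
Log2 normalized count of each of the 9 genes in each of the 12 tumors, minus the mean of that gene over the tumors (color, scale at right), above the mean of the same quantity over 4 marker lists. Columns are tumors, by number and group. Olaparib tumor 1510 is blue for 8 of the 9 genes, vehicle tumor 1529 is red for all 9, and olaparib tumor 1517 is red for Fap, Pdgfrb, Twist1, Col4a1 and the endothelial markers.

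How the members moved together is given as a description over 12 tumors that share treatments. Of 36 pairs, 20 had a Pearson r over 0.7 on the log2 scale. Among the interstitial matrix genes and Thy1, r was 0.95 for Col1a1 with Fn1 (Spearman rho 0.95), 0.96 for Fn1 with Thy1 (rho 0.94) and 0.91 for Col3a1 with Fn1 (rho 0.90). Without the 2 tumors furthest from the median of the first gene, r was 0.91, 0.93 and 0.91 for these pairs. For Fap, Pdgfrb and Twist1, r was 0.94 for Fap with Pdgfrb (rho 0.95) and 0.91 for Fap with Twist1 (rho 0.87). Between these groups of genes r was over 0.7 in 10 of 12 pairs and ran from 0.63 to 0.82 (rho 0.57 to 0.87), and without the 2 furthest tumors it ran from 0.043 (Col3a1 with Fap) to 0.70, so in part these relations rested on those tumors. Col4a1 was closest to Pdgfrb, at 0.82 (rho 0.80). For Thbs1 r was 0.085 with Col3a1 (rho 0.48), 0.34 with Col1a1 (rho 0.53), 0.43 with Fn1 (rho 0.59) and 0.51 with Thy1 (rho 0.56). Without the 2 furthest tumors these were 0.49, 0.63, 0.71 and 0.22.

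Among all genes of the panel, those whose pattern was most like each member were in part other members. The 3 most like Fn1 over the 12 tumors were Thy1, Col1a1 and Col3a1, with r from 0.91 to 0.96. Thy1 was followed by Fn1, Col1a1 and Col3a1 (r 0.82 to 0.96), and Col1a1 by Fn1, the integrin chain gene Itga5 and Col3a1 (r 0.88 to 0.95). Col3a1 was most like Colec12, Fn1 and Cd276 (r 0.88 to 0.95), although the rho for Cd276 was 0.59. Fap was most like Pdgfrb, the junction gene Jam3 and the semaphorin and VEGF co-receptor gene Nrp1 (r 0.91 to 0.94), and Pdgfrb like Jam3, Fap and the lymphatic growth factor gene Vegfc (r 0.93 to 0.94). Twist1 was most like Nrp1, the VEGF receptor gene Kdr and Itga5 (r 0.93 to 0.96). Col4a1 was most like the cytokine receptor genes Il3ra, Il1r1 and Il4ra, each at 0.94. For Thbs1 the nearest genes were Ncam1 (0.73), Ptgs2 (0.66) and Itga6 (0.59).

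The balance between members within a tumor also differed. Probes differ in efficiency, so only the change of a log2 difference between tumors is read and not its level. Col1a1 minus Col3a1 ran from 1.55 to 2.02 in the ADU-S100 tumors and from 0.31 to 0.84 in the combination tumors, without overlap. It ran from 0.64 to 1.46 with vehicle and 0.80 to 2.09 with olaparib. The lowest values of the 12 tumors were those of combination tumors 1270 and 1251 and vehicle tumor 1269, at 0.31, 0.73 and 0.64. These tumors share a number series. Combination tumor 1539, of the number series of the ADU-S100 tumors, was at 0.84. Of the 689 single genes 20.9% had every combination tumor below every ADU-S100 tumor, and the share of gene pairs was not computed. Of the computed pairs with Col1a1, the one with Fn1 had the narrowest spread over the 12 tumors, from 1.25 to 2.62. Fap minus Pdgfrb had a narrower one, from -0.98 to -0.059. Col1a1 minus Col4a1 was between 1.47 and 3.17 in the 9 tumors outside the olaparib group, and was -0.20, 0.37 and 3.20 in olaparib tumors 1510, 1517 and 1521. Fap minus Pdgfrb was lowest in the ADU-S100 tumors, at -0.98 to -0.69, followed by the olaparib tumors at -0.64 to -0.25. These ratios were chosen with the values in view and were not tested.

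A list of other genes linked to matrix and mesenchymal cells leaned the same way in part, but most of its measured genes code for secreted signals and not for matrix. The 9 that were measured were Spp1, Vim, Snai1, the growth factor gene Vegfc and the chemokine or cytokine genes Cxcl12, Il6, Ccl2, Ccl11 and Ccl7. All 9 were negative with olaparib against 39.3% of all genes, with a median log2 fold change of -0.81. In the combination against ADU-S100, 8 of the 9 were negative with a median of -1.08, the exception being Spp1 at 0.84, where 59.7% of the 689 genes were negative with a median of -0.22. The 2 with an unadjusted limma p under 0.05 there, where 4.64% of the 689 genes were lower at that threshold, were Snai1 at -2.23 (limma unadjusted p = 0.0179) and Ccl7 at -1.82 (limma unadjusted p = 0.0176). In olaparib against vehicle 7 of the 9 were negative with a median of -0.30, none with an unadjusted limma p under 0.05, where 25.4% of the 689 genes were negative with a median of 0.45. With olaparib, 2 of them had an unadjusted limma p under 0.05 in the lower direction, where 1.45% of the 689 genes did. These were the genes of the monocyte-recruiting chemokines Ccl2 and Ccl7, which fibroblasts and other cells make. The log2 fold change was -1.06 for Ccl2 and -1.16 for Ccl7, each with a limma adjusted p = 0.548. Matrix receptor genes, mainly integrins, were negative in 8 of 11 with a median of -0.22, and proteases with their inhibitors in 6 of 7 with a median of -0.16. In the combination against ADU-S100 these were 9 of 11 (median -0.52) and 6 of 7 (median -0.62). In olaparib against vehicle, where 25.4% of the 689 genes were negative with a median of 0.45, these were 5 of 11 (median 0.051) and 3 of 7 (median 0.049). Of 10 growth factor and TGF-beta pathway genes, which drive matrix production, 4 were negative and the median was 0.060. It was 6 of 10 in olaparib against vehicle (median -0.054) and 3 of 10 in the combination against ADU-S100 (median 0.28). In the olaparib-treated against the olaparib-free tumors, none of the genes of these 3 lists had an unadjusted p under 0.05 in limma. In the combination against ADU-S100 1 did, the urokinase receptor gene Plaur, named after its value was seen, which was at 192 to 622 normalized counts with the combination and 709 to 1576 with ADU-S100 (limma unadjusted p = 0.0274).

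Markers of other cell types were measured on the same tumors. All 10 endothelial markers were negative with olaparib (median -0.53, none with an unadjusted limma p under 0.05), with Mcam, which had the highest mean, at -0.44. Of the 689 genes 39.3% were negative. In olaparib against vehicle 7 of the 10 endothelial markers were negative (median -0.17), and in the combination against ADU-S100 all 10 (median -0.78). The shares over the 689 genes were 25.4% and 59.7%. The summed endothelial markers were 3095 to 16033 normalized counts with vehicle, 3648 to 13900 with ADU-S100, 2198 to 37317 with olaparib and 2687 to 4039 with the combination. Of the 11 macrophage and monocyte markers 9 were negative (median -0.28, none with an unadjusted limma p under 0.05), with Lyz2, the highest, at -0.47. It was 8 of 11 in olaparib against vehicle (median -0.20) and 9 of 11 in the combination against ADU-S100 (median -0.61). The summed macrophage and monocyte markers were 5543 to 17140 with vehicle, 9365 to 22311 with ADU-S100, 8621 to 11643 with olaparib and 10370 to 11210 with the combination. Of the 9 T cell markers tested 1 was negative (Lck, the highest, at -0.28) and the median was 0.66, while Cd8b1 and Cd2 did not pass the filter on low values. Cd4, Cd3e and Cd3g were higher at an unadjusted limma p under 0.05, by log2 fold changes of 1.38, 1.14 and 0.82, as were 42 of the 689 genes (6.1%). The limma adjusted p was 0.529 for Cd4 and 0.548 for Cd3e and Cd3g. Of the 4 epithelial markers 2 were negative, Epcam was at 0.38, and Muc1 was at 1.55 (limma unadjusted p = 0.0221, adjusted p = 0.529). The summed epithelial markers were 12229 to 23119 with vehicle, 13342 to 20770 with ADU-S100, 13739 to 24085 with olaparib and 19103 to 21681 with the combination. The general leukocyte markers had a median of -0.093, with 3 of 3 negative and Ptprc at -0.064. The part of the cell make-up in the values of the members was not tested.

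**Figure D4:**
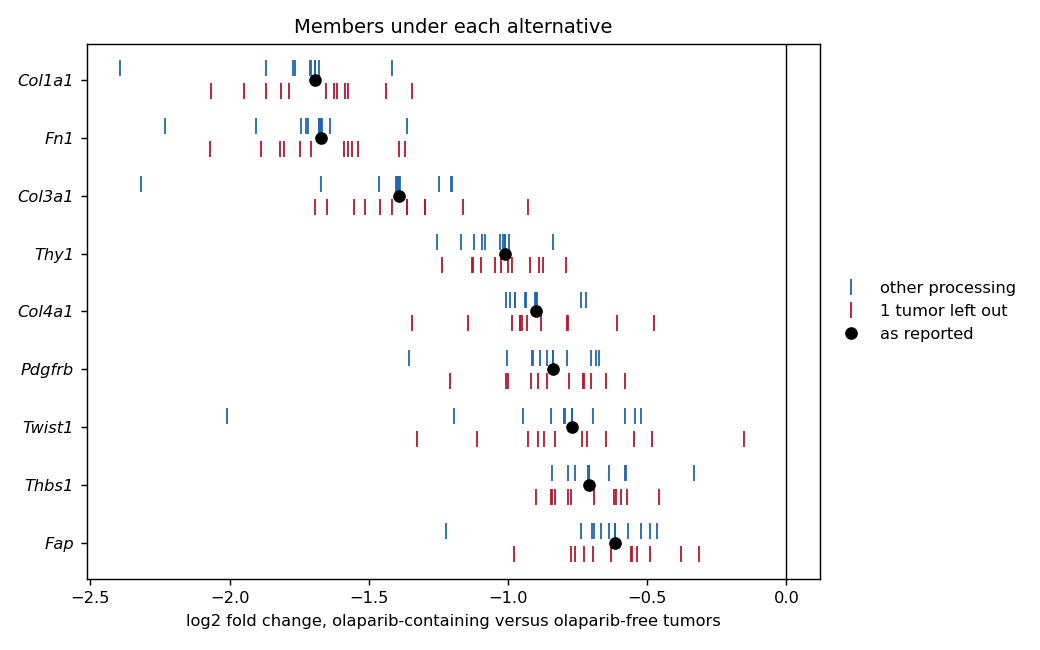
Log2 fold change of each of the 9 genes between the olaparib-treated and olaparib-free tumors (x axis) as reported (black point), under other processing (blue ticks) and with 1 tumor left out (red ticks). Each tick lies below 0. Twist1 moves most with 1 tumor left out, from -1.33 to -0.15, and Thy1 stays between -1.26 and -0.79.

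The negative sign of the 9 estimates with olaparib held in each of the 25 alternatives run for that comparison. Col1a1 ranged from -2.39 to -1.34 over them, Fn1 from -2.23 to -1.36, Col3a1 from -2.32 to -0.93 and Thy1 from -1.26 to -0.79. In the 9 tumors whose numbers start with 15, the log2 fold change was -1.71 for Col1a1, -1.64 for Fn1, -1.40 for Col3a1 and -1.01 for Thy1, with limma unadjusted p of 0.0214, 0.0158, 0.0834 and 0.0591. With the number series as a block these were -1.42, -1.36, -1.20 and -0.84. The 12 series holds 1 olaparib-free tumor (vehicle 1269) and 2 olaparib-treated ones (combination 1251 and 1270), too few for a test. Combination minus vehicle within it was -0.24 for Col1a1, -0.42 for Fn1, -0.12 for Col3a1 and -0.54 for Thy1 on the log2 scale. It was negative for 8 of the 9 members with a median of -0.42, Twist1 being at 0.24. The number of members lower at an unadjusted p under 0.05 in limma was between 2 (the 15 series alone) and 8 (without olaparib tumor 1517, where Thbs1 was the exception).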

How the data were processed

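RNA of snap-frozen tumor chunks (100 ng) was hybridised to the nCounter PanCancer Immune Profiling Panel. The deposited values are a normalized signal. By the study's methods, probe counts were corrected for background and each tumor was scaled, in nSolver 4.0, by its positive controls and by housekeeping genes (their geometric mean). Apart from 2 or 3 values at a floor of 1 in 5 tumors, all values were whole multiples of a tumor-specific factor (tolerance 0.01), from which counts were recovered. These total 106206 to 1519471 a tumor, which sets the counting error. Whether a background was subtracted before scaling cannot be told from the values, and the counting error is taken as if none was.

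Values were analysed as log2(value + 1) in limma 3.58.1 (R 4.3.3), with 1 mean per group over the 12 tumors, for 689 genes with at least 20 in at least 3 tumors, and Benjamini-Hochberg adjustment with a threshold of 0.05. Fold changes are on that scale. No source says that tumors come from separate donors, so p-values measure the spread between these tumors. The members and lists were chosen with earlier results of these data known. Named genes were the 9 members, the 3 genes most like each by Pearson r, and the measured genes of the matrix and mesenchymal list. Of the other lists they were genes with an unadjusted p under 0.05 (at most 4 a list) or, among markers, the highest mean.

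Alternatives were a pseudocount of 10, filters, median and quantile scaling, a variance trend, groups compared only, the methods' t-test, edgeR 4.0.16 on recovered counts (authors' factors or TMM), background subtraction, the number series as a block or either series alone (added after seeing the data), the log2 factor as a covariate, and leaving out tumors. Figures were drawn with matplotlib 3.10.9.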

Additional observations from a re-analysis of the deposited data

How the results depend on the processing

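Of 1216 values recomputed for 46 results under 27 settings, 1187 kept their direction and their side of the threshold, 14 changed sign and 15 newly passed. Of the members, these results covered only Fap and Thy1 for ADU-S100 against vehicle, and only Col3a1 and Fn1 for the interaction. Changes of sign of the other members there are not in the tally. In ADU-S100 against vehicle the negative members went from 7 to 2 without vehicle tumor 1529 and to 9 in edgeR with TMM. The changes of sign in the combination against ADU-S100 were Col3a1 0.25, Fn1 0.084, Thy1 0.069, Fap 0.30 and Twist1 0.62 with the number series as a block, Fap 0.38 and Twist1 0.52 with the log2 factor as a covariate, Fap 0.27 and Twist1 0.25 in the 15 series alone, and Twist1 without ADU-S100 tumor 1506 (range -0.70 to 0.062 with 1 tumor left out). In olaparib against vehicle they were Col4a1 0.22 without vehicle tumor 1529 and 0.48 without olaparib tumor 1521 (range -1.26 to 0.48), Twist1 0.082 without olaparib tumor 1510 (range -2.27 to 0.082), and Thbs1 0.23 without olaparib tumors 1517 and 1521. The count of genes with an adjusted p under 0.05, 0 as reported in each comparison, became 1 in the combination against ADU-S100 with a pseudocount of 10, the filter at 50, median scaling, quantile normalization or a variance trend, and ranged from 0 to 1 with 1 tumor left out. In the combination against vehicle it became 2 when only those groups were fitted, 3 with the methods' t-test and 4 with the log2 factor. It ranged from 0 to 55 in olaparib against vehicle and from 0 to 86 for the interaction with 1 tumor left out, the high values being those without olaparib tumor 1521, and was 11 and 24 without olaparib tumors 1517 and 1521, where the lone olaparib tumor is assumed to vary like the other groups. The causes were not tested. With olaparib against without, 10 genes were lower and 42 higher at an unadjusted limma p under 0.05, but 28 and 48 after quantile normalization, 20 and 50 after median scaling and 29 and 42 in edgeR with TMM. The median over all genes was 0.10 as deposited, -0.0032 after quantile normalization and -0.024 with TMM. In the combination against vehicle 1 gene was lower and 52 higher, but 17 and 33 after quantile normalization and 28 and 34 with TMM. No paired analysis was possible because the tumor numbers are not shared between groups. With 3 tumors a group and recovered totals that differed 14.3-fold, differences in low genes such as Twist1 are the least certain.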
